A study of Mus musculus with 16 samples.

Results

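For each pool of mice, the log2 signal in sorted GFP+ cells minus the log2 signal in the GFP- cells of the same mice gives the enrichment of a transcript in GFP+ cells, and the question was whether exposure to an odor alters that enrichment. All 22206 non-control probe sets of the array were compared, with no selection on their values, across all 16 arrays of the series. The arrays form 8 pools, 4 from mice exposed to the ketone 2-hexanone (odor pools) and 4 from mice exposed to filtered air (vehicle pools), and each pool gave 1 GFP+ and 1 GFP- array. Of the probe sets, 19572 had 1 gene symbol, which stood for 19505 named genes, among them 1080 odorant receptors (119 of class I, 947 of class II and 14 without an assigned class) and 15 trace amine-associated receptors.

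Every animal in both treatments was an S100a5-tauGFP mouse, in which the S100a5 promoter drives a GFP that is fused to tau and fills the axon. The 24 mice, of both sexes and 7 to 12 weeks old, sat singly in chambers with clean air flowing at 3.1 L/min for 40 h, and from 26 h on received a 10 s pulse of odorant or of filtered air every 20 min. The olfactory mucosa was dissected and dissociated, and its cells were sorted by GFP. Each array was made from 50 to 100 ng of RNA from 3 pooled mice, so the spread between pools is one of pools and not of single animals. The GFP+ gate follows activity of the reporter and not one receptor, and the GFP- fraction holds every other cell of the dissociated mucosa. In such bulk samples, fewer cells of a type and less RNA per cell cannot be told apart.

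Each mature olfactory sensory neuron expresses 1 odorant receptor gene, chosen from a large family. Odorant binding activates the G protein subunit encoded by Gnal and the adenylyl cyclase encoded by Adcy3, and the resulting cAMP opens a cation channel. S100a5 encodes a calcium-binding protein of these neurons whose transcription depends on odor-evoked activity, so cells with a GFP reporter under its promoter are enriched in recently active neurons, and the receptors found in them can include those of the odor.

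The promoter of the gene that drives the reporter is printed here because the sort rests on it, with those of a pair of receptor genes described below. The pair was picked among receptors with wide changes, and not by rank. For both, the RefSeq table (build GRCm38.p6) held a start upstream of the coding region. Each is the 250 bases before the start, on the gene's own strand. S100a5 lies at chr3:90608272-90608521 on the plus strand, Olfr177 at chr16:58873149-58873398 on the minus strand and Olfr1110 at chr2:87140234-87140483 on the minus strand. Capitals mark TAATNA, the core of homeodomain binding sites, searched on both strands.
S100a5: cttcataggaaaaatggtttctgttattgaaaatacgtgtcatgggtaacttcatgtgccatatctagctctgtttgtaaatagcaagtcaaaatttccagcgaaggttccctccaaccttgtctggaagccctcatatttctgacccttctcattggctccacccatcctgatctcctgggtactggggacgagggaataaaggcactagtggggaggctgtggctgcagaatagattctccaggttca
Olfr177: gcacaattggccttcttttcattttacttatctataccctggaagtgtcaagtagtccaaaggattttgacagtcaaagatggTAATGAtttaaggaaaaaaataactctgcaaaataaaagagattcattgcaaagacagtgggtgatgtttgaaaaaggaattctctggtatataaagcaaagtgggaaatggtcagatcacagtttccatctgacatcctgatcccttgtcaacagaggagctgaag
Olfr1110: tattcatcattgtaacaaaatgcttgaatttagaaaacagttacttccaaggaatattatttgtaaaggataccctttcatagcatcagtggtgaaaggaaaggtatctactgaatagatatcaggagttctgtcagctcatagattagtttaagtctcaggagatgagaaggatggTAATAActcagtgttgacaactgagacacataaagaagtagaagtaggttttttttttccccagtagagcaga
The letters TAATNA occur once in the Olfr177 window, 167 bases before the start, and once in the Olfr1110 window, 73 bases before it. They are not in the S100a5 window, and TGACG, the core of a cAMP response element (searched on both strands, with no overlap with TAATNA), is in none of the windows. Of 32851 promoters of the same length, 24.3% held TAATNA and 17.8% held TGACG, while of 944 receptor promoters 64.0% held TAATNA and 4.24% held TGACG. A match is only a match of letters.

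The arrays were alike in their signal. Medians of the non-control log2 signals were 5.70 to 5.76 on GFP+ arrays and 6.06 to 6.12 on GFP- arrays. A background floor, the highest of 23 antigenomic background probe sets of an array, lay at 6.16 to 7.33, and 39.8% to 49.1% of probe sets were above it. Omp, a marker of mature olfactory neurons, was between 19.19 and 19.50 on all arrays, near the highest value of 19.81, so it is not read as a stable reference. S100a5 was higher in the GFP+ cells in each of the 8 pools. Precision is limited by there being 4 pools in each treatment.

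S100a5 itself showed no detected change of enrichment with odor. Its GFP+ minus GFP- difference was 1.74, 1.69, 1.27 and 1.75 in odor pools 1 to 4 and 1.43, 1.21, 1.32 and 1.56 in vehicle pools 1 to 4. The groups overlapped, since odor pool 3 lay below 3 of the vehicle pools. The change was 0.23 ± 0.22 (SE, n = 4 pools against 4, log2), with a 95% interval from -0.25 to 0.72 that includes 0. For Omp the change was 0.09 ± 0.20 (SE), but its signals lie near the top of the scale, so this value does not show stability.

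Over all probe sets, limma called 0 higher and 0 lower (0% each) at a Benjamini-Hochberg adjusted p below 0.05, with the 8 within-pool differences as data. At an unadjusted p below 0.05 it listed 960 probe sets (4.32%), 486 higher (2.19%) and 474 lower (2.13%). The median change was 0.00 with an SD of 0.34 over all probe sets. All 4 odor pools lay above all 4 vehicle pools for 264 probe sets (1.19%) and below them for 241 (1.09%). Of those, 118 and 142 were under the floor on all 16 arrays. An exact permutation test of a single gene over 8 pools cannot give less than p = 0.0286 (two-sided), which each non-overlapping gene reaches.

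Among odorant receptors the non-overlapping genes lay mostly on one side. For 21 of the 1080 receptors (1.94%, beside 1.19% of all probe sets) every odor pool lay above every vehicle pool, and for 5 (0.463%, beside 1.09%) every odor pool lay below. At an unadjusted limma p below 0.05 there were 62 of the 1080 receptors higher and 29 lower, beside 2.19% and 2.13% of all probe sets. Of the 1080 changes, which had a median of 0.03, 564 (52.2%) were above 0, beside 50.2% of all probe sets. The count of 62 was 40 without vehicle pool 3 and 96 without vehicle pool 4, and the count of 29 was 49 without vehicle pool 1. The share of all probe sets was not taken in those fits, so receptors cannot be set against other genes there. The named receptors and these counts are descriptive, since no receptor passed the adjusted threshold here. Close receptor copies can share array probes, which was not tested.

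**Figure D1:**
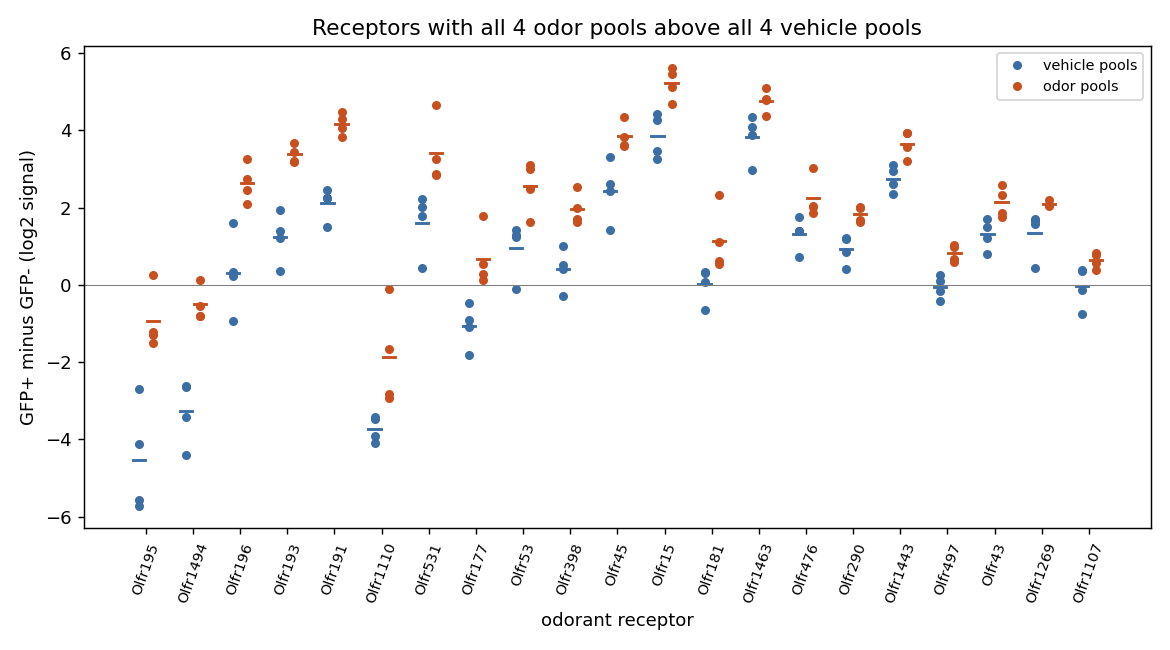
GFP+ minus GFP- difference (log2 signal, vertical axis) of the 21 receptors whose 4 odor pools (orange) all lay above the 4 vehicle pools (blue), ordered by change. Points are pools and bars are means. The widest gap is that of Olfr195, at 3.58, and the narrowest that of Olfr1107, at 0.67.

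The receptor with the lowest p was Olfr191, a class II receptor of the MOR183 family on chromosome 16. Its GFP+ minus GFP- difference was 4.29, 3.83, 4.05 and 4.48 in the odor pools and 2.26, 2.26, 1.51 and 2.46 in the vehicle pools. All odor pools were well above all vehicle pools, and the transcript was enriched in GFP+ cells in every pool. The change was 2.04 ± 0.27 (SE), a 4.12-fold difference of the ratio on the deposited scale, with a limma adjusted p of 0.267. Both fractions contributed. Olfr191 averaged 15.01 ± 0.37 (SD, n = 4) in odor GFP+ cells and 14.31 ± 0.26 in vehicle GFP+ cells, while in GFP- cells it averaged 10.85 ± 0.13 with odor and 12.19 ± 0.19 with vehicle. The GFP- part, -1.33, was the larger one, at a limma adjusted p of 0.0650, against 0.71 in GFP+ cells, at 0.999948. Neither part was called.

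Olfr193, its neighbour on chromosome 16, had the same form. Its differences were 3.45, 3.20, 3.19 and 3.68 in the odor pools and 1.22, 1.94, 0.36 and 1.39 in the vehicle pools. The groups did not overlap, and the lowest odor pool was above the highest vehicle pool by more than the range of the odor pools. The change was 2.15 ± 0.32 (SE; limma adjusted p = 0.281), made of 1.10 in GFP+ and -1.05 in GFP- cells.

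Olfr1494, a class II receptor of the MOR266 family on chromosome 19, had a different course. Its difference was -0.54, 0.11, -0.80 and -0.80 in the odor pools and -2.64, -2.63, -4.42 and -3.41 in the vehicle pools. With vehicle, its transcript was lower in GFP+ than in GFP- cells of every pool. With odor the mean difference was -0.51, so GFP+ cells were still lower on average, but by less than in any vehicle pool. The change was 2.77 ± 0.40 (SE; limma adjusted p = 0.281), 6.82-fold on the deposited scale, and it lay in the GFP+ cells. There the log2 signal was 10.13, 11.00, 10.22 and 10.45 with odor against 7.97, 8.23, 6.88 and 7.47 with vehicle. GFP- cells averaged 10.96 ± 0.24 (SD, n = 4) with odor and 10.92 ± 0.28 with vehicle.

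Olfr195, of the MOR184 family, had the widest change. Its difference was -1.22, -1.51, -1.31 and 0.26 in the odor pools and -4.12, -5.73, -5.57 and -2.69 in the vehicle pools. The groups did not overlap, though pools varied more than for Olfr191. The change was 3.58 ± 0.64 (SE; limma adjusted p = 0.593), of which 3.35 came from GFP+ cells. Vehicle GFP+ arrays were above the floor on 2 of 4 arrays, and with every array raised to its floor the change was 2.46, so the size depends on signals near background.

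Olfr196, of the MOR183 family, differed by 2.08, 3.25, 2.73 and 2.45 in the odor pools and by 0.34, 1.61, 0.24 and -0.94 in the vehicle pools. Its odor pools were all higher, by 2.32 ± 0.47 (SE; limma adjusted p = 0.999). GFP- cells with odor were above the floor on 1 of 4 arrays and GFP+ cells with vehicle on 3 of 4, and the change was 1.54 with arrays raised to the floor. Olfr1110, of the MOR172 family on chromosome 2, stood at -2.81, -1.65, -2.92 and -0.12 with odor and at -3.42, -4.11, -3.91 and -3.47 with vehicle. The odor pools were spread widely, and only odor pool 4 came near equality of the fractions. The change was 1.85 ± 0.54 (SE; limma adjusted p = 0.999), made of 2.01 in GFP+ and 0.16 in GFP- cells.

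**Figure D2:**
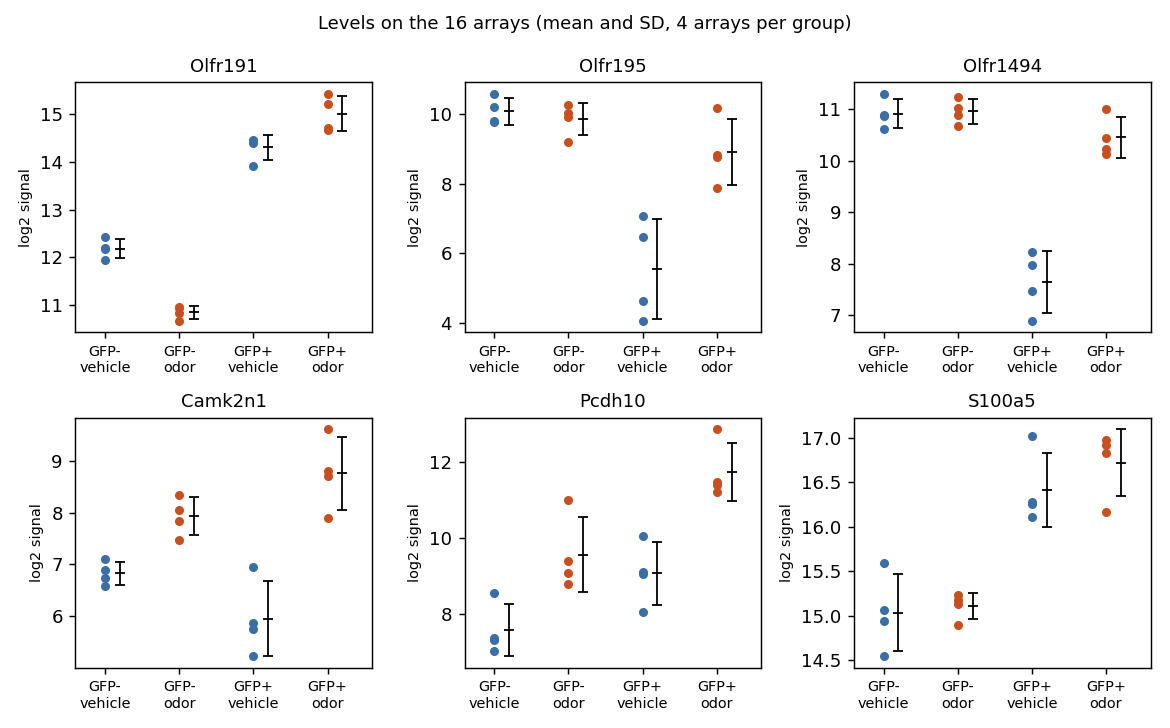
Log2 signal (vertical axes, each with its own range) of 6 genes on the 16 arrays, as GFP- and GFP+ cells with vehicle (blue) and odor (orange). Points are arrays, and the mark beside them is the mean with the SD of 4 arrays. Olfr191 is lower in odor GFP- cells, while Olfr1494 differs between treatments in GFP+ cells alone.

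Calls for these receptors depended on how the pools and the low signals were treated. Without the pool pairing, limma on 16 arrays called 2 probe sets higher (0.00901%), Olfr191 and Olfr1494, each at an adjusted p of 0.0116. That fit takes the GFP+ and GFP- arrays of a pool as independent, though they come from the same mice. Since the pool is the replicate, its calls are not read as stronger evidence. With the pool as a random block limma called 3 (0.0135%), Olfr191 and Olfr1494 at an adjusted p of 0.00536 and Olfr193 at 0.0383. With arrays raised to their floor and the pools paired, limma called 4 (0.018%): Olfr1494 at an adjusted p of 0.00348, Olfr191 at 0.00658, Olfr193 at 0.00769 and Olfr195 at 0.00775. Olfr1494, Olfr191 and Olfr193 were above the floor on all 16 arrays, so their own values and changes stayed the same. Their lower adjusted p came from replaced values of other probe sets, of which 10211 were under the floor on all arrays. These calls are not read as stronger evidence. None of these fits called a probe set lower.

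The parts of the change differed among the 21 receptors. In 19 of them the GFP+ value was higher and the GFP- value lower with odor, and in the other 2, Olfr1494 and Olfr1110, both were higher. GFP+ was likewise higher and GFP- lower in 241 of the 264 probe sets with all odor pools above, so this split is not particular to receptors. The GFP+ part was the larger one in 158 of those 264 probe sets. Among the 21 receptors, the GFP+ part was the larger one in 12 and the GFP- part in 9. Olfr15, of the MOR256 family on chromosome 16, is an example of the latter, since its change of 1.37 ± 0.33 (SE) was made of 0.35 in GFP+ and -1.01 in GFP- cells. Olfr398, of the MOR157 family, had a change of 1.56 ± 0.32 made of 0.53 and -1.03. Olfr531, of the MOR251 family, was on the other side, with a change of 1.80 ± 0.48 made of 1.16 and -0.63. The other receptors of the 21 ranged in change down to 0.67, and 15 of the 21 were above the floor on all 16 arrays.

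**Figure D3:**
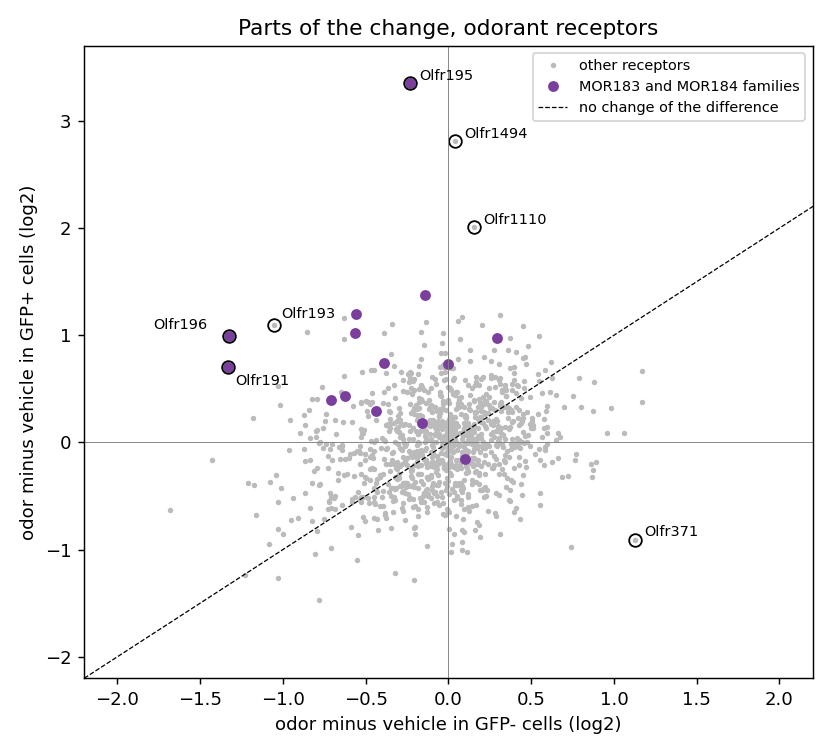
Odor minus vehicle in GFP+ cells (vertical axis, log2) against the same in GFP- cells (horizontal axis, log2), as means of 4 arrays per group. Points are all probe sets whose symbol is Olfr with a number, not limited to the 1080 receptors of the text. The dashed line marks no change of the difference, and purple points are the MOR183 and MOR184 families. Olfr195 and Olfr1494 stand apart upward, while Olfr191, Olfr193 and Olfr196 lie to the upper left. The value of each fraction enters both the change and 1 axis.

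Within each fraction, odor was compared with vehicle in a limma fit of 4 group means to all 16 arrays. In GFP+ cells it called 2 probe sets, both higher (0.00901%), and 0 lower. They were Olfr1494, which rose by 2.81 (adjusted p = 0.000128), and Camk2n1, which rose by 2.81 (adjusted p = 0.00268). The fit shares 1 spread between the fractions and leaves out the pairing. With odor and vehicle, the SD of Olfr1494 was 0.39 and 0.60 in GFP+ cells but 0.24 and 0.28 in GFP- cells. That of Camk2n1 was 0.70 and 0.73 against 0.37 and 0.22. These p-values therefore do not measure the spread of GFP+ arrays alone. Vehicle GFP+ cells were above the floor for Camk2n1 on 1 of 4 arrays, and with arrays raised to their floor its GFP+ difference was 2.19 (limma adjusted p = 9.37e-05). That p is not read as stronger evidence, since the difference shrank and low values were replaced by the floors. In GFP- cells limma called 0 higher and 0 lower (0% each), with 547 probe sets (2.46%) at an unadjusted p below 0.05, against 869 (3.91%) in GFP+ cells. In GFP- cells Olfr1494 differed by 0.04 and Camk2n1 by 1.10, neither called.

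The receptors whose odor pools all lay below the vehicle pools were Olfr371, Olfr435, Olfr433, Olfr780 and Olfr1511. Olfr435, of the MOR261 family, differed by -1.70, -1.85, -2.62 and -1.28 with odor and by -1.10, -0.88, 0.56 and 0.84 with vehicle. The groups nearly met, and the change was -1.72 ± 0.46 (SE; limma adjusted p = 0.999), made of -0.98 in GFP+ and 0.74 in GFP- cells. Odor GFP+ cells were above the floor on 2 of 4 arrays, and the change was -1.33 with arrays raised to the floor. Olfr433, of the MOR123 family, had a change of -1.07 ± 0.28 (SE), with differences of 1.15 to 1.74 with odor and 2.09 to 3.08 with vehicle, and its GFP- cells were under the floor on all arrays, so the size of the change is uncertain. Olfr1511, of the MOR223 family, had the smallest of these changes, -0.65 ± 0.22. Olfr780, of the MOR114 family, had a change of -0.88 ± 0.31 that was 0.17 with arrays raised to the floor, and its GFP+ cells were under the floor on all arrays. Olfr371 was under the floor on all 16 arrays, so its change of -2.04 is no measured level. By unadjusted p, Olfr1158, under the floor throughout, and Olfr1019, above it throughout with a change of -1.08 ± 0.33 (SE), completed the 5 lowest.

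Receptors that share a family name by sequence (MOR families) were compared by medians, as a description of families chosen after their values were seen. Of 229 families, 75 had at least 5 measured members. MOR183 was the highest of them, with a median change of 1.34 over 6 members, 5 of them above 0. MOR165 came next with a median of 1.20 over 7 members, all above 0, and then MOR184 with a median of 1.09 over 8 members, all above 0. MOR187 (5 of 5 above 0, median 0.90) and MOR251 (5 of 5, median 0.76) followed. With arrays raised to their floor, the medians were 1.10 for MOR183, 0.94 for MOR184 and 0.73 for MOR251, but 0.49 for MOR165 and 0.11 for MOR187, whose members lay partly near background. Leaving out 1 pool at a time gave medians of 1.23 to 1.62 for MOR183 and 0.83 to 1.27 for MOR184. For MOR165 the lowest was 0.80, without vehicle pool 3, and for MOR251 the lowest were 0.41, without odor pool 4, and 0.44, without vehicle pool 3. At the low end stood MOR261 (3 of 11 above 0, median -0.50), MOR31 (0 of 11, median -0.49) and MOR34 (0 of 8, median -0.42). The MOR261 median was -0.17 without odor pool 3, -0.30 without vehicle pool 4 and -0.28 with arrays raised to the floor, and that of MOR34 was -0.088 without vehicle pool 4, so their places at the end of the order depended on single pools. The MOR31 median lay between -0.64 and -0.37 when 1 pool was left out. The median over all receptors was 0.03.

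The MOR183 and MOR184 genes are neighbours on chromosome 16, and their changes were set along the order of the genes. From Olfr172 to Olfr196, 14 genes carried either family name, and 13 of their changes were above 0. The exception was Olfr187, at -0.26 ± 0.33 (SE) and at 0.016 without odor pool 3, whose differences were 1.80, 2.02, 1.03 and 2.52 with odor and 1.70, 2.07, 2.60 and 2.03 with vehicle. Olfr177 differed by 0.12, 0.29, 0.53 and 1.78 with odor and by -1.08, -0.48, -1.83 and -0.92 with vehicle, so the odor pools lay above 0 and the vehicle pools below. Its change was 1.76 ± 0.40 (SE; limma adjusted p = 0.999). Olfr175 had a change of 1.52 ± 0.44 (SE), but its groups overlapped, at 3.84, 2.32, 3.32 and 3.82 with odor and 2.22, 1.75, 0.71 and 2.53 with vehicle. The MOR182 genes that come next, and among which Olfr195 and Olfr196 lie, had a median change of -0.05 over 10 members, 4 of them above 0. MOR182 thus stood near the median of all receptors.

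**Figure D4:**
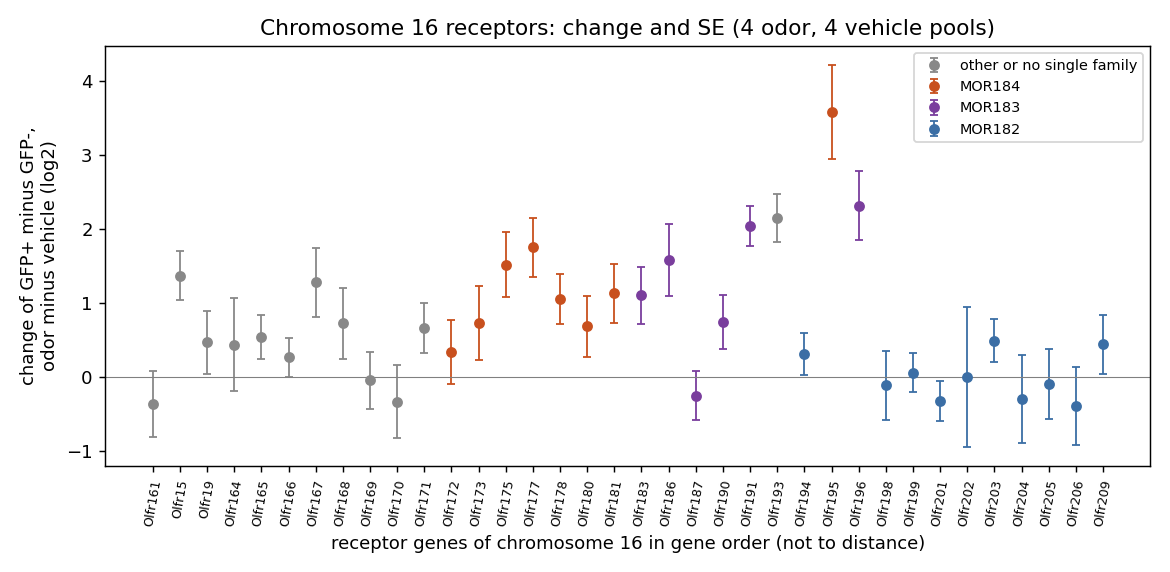
Change of the GFP+ minus GFP- difference (odor minus vehicle, log2, vertical axis; bars are SE from 4 odor and 4 vehicle pools) for the receptor genes of chromosome 16 in gene order, not to distance. MOR184 (orange) and MOR183 (purple) members lie above 0 apart from Olfr187, while MOR182 members (blue) lie between -0.39 and 0.49.

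Class I receptors, the older class that resembles the receptors of fish, had a median on the other side of 0 from class II, but that depended on single pools. Of 119 class I receptors, 37 (31.1%) had a change above 0, with a median of -0.17, and of 947 class II receptors 522 (55.1%) did, with a median of 0.06. Of the class II receptors 26 (2.75%) had groups that did not overlap in either direction, close to the 505 of all probe sets (2.27%), and 0 of the 119 class I receptors did. The mean class I difference was 0.33, 0.24, 0.02 and 0.06 in the odor pools and 0.04, 0.28, 0.21 and 0.77 in the vehicle pools, so the treatments overlapped and vehicle pool 4 alone was high. Without vehicle pool 4 the class I median was 0.018, and without vehicle pool 3 the class II median was -0.016, so each sign rested on 1 pool. The 15 trace amine-associated receptors, which detect amines, had 7 changes above 0 and a median of -0.07. Taar5, the one of lowest p, was under the floor on all arrays.

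Outside the receptors, Camk2n1, which encodes an inhibitor of the kinase CaMKII, was the gene above background with the lowest p. Its difference was 0.43, 0.86, 0.46 and 1.56 with odor and -0.97, -1.25, -1.36 and 0.07 with vehicle. Odor pools were all above vehicle pools; every odor pool was above 0, and 3 of the 4 vehicle pools were below. The change was 1.71 ± 0.37 (SE; limma adjusted p = 0.999). Its level was higher with odor in both fractions, by 2.81 in GFP+ and by 1.10 in GFP- cells. Vehicle GFP+ cells were above the floor on 1 of 4 arrays, and with arrays raised to their floor the change was 1.09. The other 12 measured members of its list, CaMK subunits and inhibitors, ranged from -0.44 to 0.24 with a median of -0.08, and 4 of them were above 0 and 0 called.

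Of the other non-receptor genes with the lowest p, Gm1993, Atp1b2, Tmem95 and Mst1r (higher) and Chdh, Skint1, Gm4951 and Was (lower) were under the floor on all 16 arrays. Mecom, which encodes a transcription factor, was above it on 3 of 16 arrays. Their differences between treatments therefore have no measured level behind them. Olfr309 and Olfr536, both class II receptors above the floor on all arrays, had changes of 0.15 ± 0.44 and 0.18 ± 0.28 (SE), which were -0.29 and -0.023 without odor pool 4.

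Genes whose transcription follows neuronal activity were examined as a list of 18 measured members. Their median change was 0.06, with 11 above 0 and 0 called. Pcdh10, a protocadherin of axon sorting, differed by 2.12, 2.06, 2.59 and 1.86 with odor and by 1.74, 1.73, 1.02 and 1.49 with vehicle. The groups did not overlap, and the change was 0.66 ± 0.26 (SE; limma adjusted p = 0.999). Its level was higher with odor by 2.65 in GFP+ cells (limma adjusted p = 0.164) and by 1.99 in GFP- cells, neither called. The level difference between treatments was thus wider than the change of enrichment. Sema7a, a membrane-bound semaphorin, had a change of 0.63 ± 0.27, with differences of 1.61, 0.85, 1.67 and 1.55 with odor and 1.14, 0.73, 0.44 and 0.86 with vehicle. Its groups overlapped through odor pool 2. Kirrel2, an adhesion molecule of axon sorting, had -0.14 ± 0.21, Lrrc3b had 0.26 ± 0.23, Pcp4l1 had 0.25 ± 0.24 and Calb2, which encodes calretinin, had 0.12 ± 0.28.

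The remaining pathway lists held 0 called genes. Immediate early genes, transcribed first after activity, had a median of 0.12 with 12 of 21 above 0. Npas4, an activity-regulated transcription factor, had the lowest p of them and was under the floor on all arrays, and Fos had -0.26 ± 0.25 (SE). Olfactory signal transduction genes had a median of 0.05 with 11 of 16 above 0, mature neuron markers 0.04 with 11 of 15, axon guidance genes 0.02 with 11 of 20 and unfolded protein response genes 0.06 with 8 of 12. The median of all probe sets was 0.00. Signal termination genes had a median of 0.02 with 6 of 11 (-0.13 without odor pool 1) and epithelial zone genes 0.06 with 6 of 10.

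Markers of other cells were examined in the same way, since they could move with the enrichment. No list had a called gene. Sustentacular cell markers had a median change of 0.14, with 11 of 14 above 0, and their mean difference ran from -1.66 to -1.29 in the odor pools and from -1.80 to -1.46 in the vehicle pools. Their mean level in GFP+ cells was 6.89 to 7.15 with odor and 6.45 to 6.86 with vehicle, which did not overlap, while in GFP- cells it reached 8.62 and 8.39. Xenobiotic metabolism genes, many of them of the same supporting cells, had GFP+ levels of 7.78 to 7.88 with odor and 7.30 to 7.67 with vehicle, and a median change of 0.11 with 16 of 21 above 0, which was 0.24 without odor pool 1. The part of these cells in the receptor results was not tested.

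Immune markers had mean levels of 5.05 to 5.30 in odor GFP+ cells and 4.69 to 5.62 in vehicle GFP+ cells, under the lowest floor, while in GFP- cells they ran from 11.61 to 12.21 and from 10.75 to 12.63. Their median change was 0.08 with 9 of 14 above 0. Immature neuron markers had a median of 0.13 with 13 of 16 above 0, and their mean differences overlapped, at -1.42 to -1.32 with odor and -1.64 to -1.34 with vehicle. Microvillous cell markers had a median of -0.39 with 4 of 11 above 0, which was 0.11 with arrays raised to their floor. Leaving out 1 pool gave medians from -0.60, without odor pool 3, to -0.19, without vehicle pool 4, and -0.22 without odor pool 1 or 4 and -0.24 without vehicle pool 2. Ascl3, a transcription factor of those cells, had the lowest p of them, was above the floor on 5 of 16 arrays and had a change of 0.34 with arrays raised to the floor. Basal cell and progenitor markers had a median of 0.22 with 7 of 10, gland and respiratory markers 0.01 with 7 of 14, stromal markers 0.08 with 7 of 11, ensheathing glia markers 0.14 with 4 of 7 (-0.22 without odor pool 3, -0.16 without vehicle pool 2) and the erythroid pair 0.07. Of 3 measured sex-linked genes 2 were above 0. Uty, on the Y chromosome, had -0.65 ± 0.25 (SE).

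**Figure D5:**
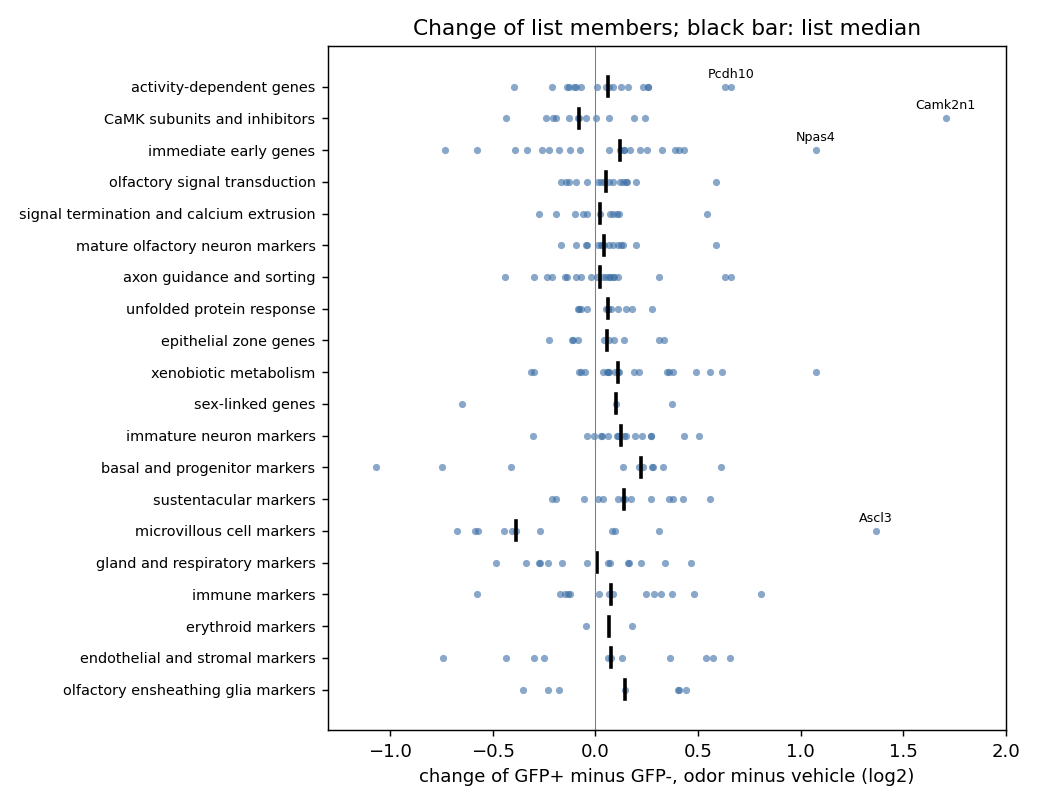
Change of the GFP+ minus GFP- difference (odor minus vehicle, log2, horizontal axis) for the members of 20 gene lists, 1 point per gene, with black bars at list medians. Most members lie near 0, and Camk2n1, Ascl3, Npas4 and Pcdh10 are marked at 1.71, 1.37, 1.07 and 0.66.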

How the data were processed

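The authors used Affymetrix Expression Console (submitters' processing notes) to make the deposited values, which are log2 signals, 1 per probe set, from 16 Clariom S arrays. Which version and summarisation they used, and the build of the array, is not given in the sources used here. Values reach 19.81, so folds stand on a scale whose transformation is unstated. Here 6640 control rows were left out and nothing was renormalized. Symbols came from the platform annotation, and 55 genes with several probe sets were represented by that of highest mean. MOR families came from RefSeq synonyms (GRCm38.p6).

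Groups and pools came from the titles. For each pool, GFP+ minus GFP- was taken, and limma 3.58.1 in R 4.3.3 (lmFit, eBayes) compared 4 odor with 4 vehicle pools over 22206 probe sets, with 6 residual and 4.95 prior degrees of freedom. Odor and vehicle were compared within each fraction by a fit of 4 group means to 16 arrays. That fit shares 1 spread between the fractions and leaves out the pairing. P-values of the change measure the spread between pools. Those of the fractions rest on the shared spread of arrays within groups. The labels do not say that odor and vehicle pools of 1 number were handled together. Deviations of their differences correlated at 0.117, 0.0991, 0.0882 and 0.104. Each odor pool correlated best with the vehicle pool of its own number. As the values were low, numbers were not taken to pair treatments in the main fit. Levels of single genes could also run alike by number. Uty in GFP- cells was 8.47, 9.31, 7.62 and 10.04 in odor pools 1 to 4 and 7.34, 8.86, 6.79 and 9.50 in vehicle pools 1 to 4. Whether pools of 1 number shared a batch was not tested. GFP+ and GFP- arrays of a pool share mice, which pairs them. Their deviations correlated at 0.0136 to 0.425.

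The members, lists and tests were chosen with earlier results of these data known. Named genes were S100a5 and Omp, the 5 receptors and 5 other genes of lowest p per direction, the lowest p of each list and genes of earlier text. Pcdh10, Sema7a, Olfr175, Olfr177, Olfr187, Kirrel2, Lrrc3b, Pcp4l1, Calb2, Fos, the non-overlapping receptors, families and gene order were added after their values were seen. The fits were tested on simulated data. Of 288 list entries, 29 had no probe set. The highest Pearson r between arrays was 0.992, so none held identical values. Figures used Python 3.11.15 and matplotlib 3.10.9.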

Additional observations from a re-analysis of the deposited data

Results flagged for a closer look

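In 9 of 138 groups of 4 pools (6.52%), over 69 genes, 1 pool's GFP+ minus GFP- difference (log2) stood far from the other 3, its gap to the nearest, as a share of the range, exceeding Dixon's critical value; chance does this in about 1 in 20 groups. Among odor pools these were S100a5 in pool 3 (1.27, nearest 1.69), Olfr195 in pool 4 (0.26, nearest -1.22), Olfr476 in pool 4 (3.02, nearest 2.05), Sema7a in pool 2 (0.85, nearest 1.55) and the erythroid gene Slc4a1 in pool 2 (-3.84, nearest -3.58). Among vehicle pools they were Olfr53 in pool 3 (-0.10, nearest 1.25), Olfr1269 in pool 3 (0.45, nearest 1.59), Uty in pool 2 (0.47, nearest 1.04) and Gm1993 in pool 2 (0.12, nearest -0.40), which was under the background floor throughout. The wide value of Olfr195 lay on the side of its change, and those of Olfr53 and Olfr1269 lay on the side away from the odor pools.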

How the results depend on the processing

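Over 22 other settings, the change of enrichment had 2 called probe sets without the pool pairing, 3 when pools entered as a random block and 4 with arrays raised to their background floor, and 0 in the others; all those called were receptors. With the replicate number as a block across treatments, the change had 0 calls as well. The replicate numbers were best matched by their own number in each of the 4 pairs, as a hint from the data. In GFP- cells 1 probe set was called with quantile normalization (of all 16 arrays, or by fraction), the lowest 40% of probe sets left out, arrays raised to the floor, or a trended and robust prior. In GFP+ cells 7 were called with arrays raised to the floor. In that setting all p-values, those of the change included, rest on an altered spread. Only 1 setting was chosen after seeing the data, that of probe sets above the floor on all arrays of a group (10177), and it gave 0 calls for the change. Receptors with odor pools all above or all below numbered 17 to 21 and 5 to 7 under other scalings. At unadjusted p, 30 receptors were higher and 11 lower without the pairing, and 93 were higher and 38 lower with the replicate number as a block across treatments. For these receptor counts the share of all probe sets was not taken in each setting. They therefore do not show whether receptors differed from other genes there.

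Of the named genes, 16 values took the other sign. With arrays raised to the floor, Olfr371, Olfr1158, Chdh, Skint1, Gm4951, Was and Taar5 had 0.11, the shift of the floors themselves, Olfr780 had 0.17 and Mecom kept -0.01. Omp had -0.047 with quantile normalization of all arrays and -0.049 by fraction, and Slc4a1 -0.039 with pool weights. Leaving out 1 pool at a time, Slc4a1 ranged from -0.39 (without vehicle replicate 4) to 0.61, Olfr187 from -0.48 to 0.016 (without odor replicate 3), Olfr309 from -0.29 (without odor replicate 4) to 0.40, Olfr536 from -0.023 (without odor replicate 4) to 0.36 and Calb2 from -0.011 (without vehicle replicate 3) to 0.31. The median of MOR183 was 1.72 without the replicate 1 pools. The cause was not tested where none is given. Signals near background limit the size of many changes, and 10211 probe sets were under the floor on all arrays.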
